A study of Mus musculus with 9 samples.

Results

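Aminoacyl-tRNA synthetases are the enzymes that join each amino acid to its transfer RNA before translation. The family examined here holds 37 mouse genes, matched by gene symbol in the array's platform annotation. It was chosen with earlier results of these data known. Of these genes, 36 had a value among the 16770 genes tested: 20 that encode enzymes of the cytosol and 16 that encode enzymes of the mitochondrion. Dars, the cytosolic aspartyl enzyme, had no probe set under its symbol and is not analysed here. Gars and Kars, whose genes supply both compartments, were counted with the cytosolic enzymes.

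Most synthetases recognise a single amino acid and the transfer RNAs that carry it, while Eprs serves both glutamate and proline. Some of the enzymes remove wrongly attached amino acids. Cytosolic and mitochondrial translation mostly draw on separate nuclear genes, and several cytosolic enzymes are held in a large multi-synthetase complex. Inherited defects of several cytosolic enzymes are a known cause of peripheral neuropathy, and defects of mitochondrial enzymes are a known cause of brain and muscle disease. Many cytosolic family members are known targets of the transcription factor ATF4, which responds to amino acid shortage and to stress of the endoplasmic reticulum.

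The values come from cultured primary cortical neurons of C57BL/6 mouse embryos of embryonic day 15. Every culture received, for 4 h on day 5, a lentivirus that expressed a short hairpin RNA, was kept for 6 further days, and was collected on day 11. The control hairpin is called shCont, and the hairpins shTdp-43-1 and shTdp-43-2 both target Tdp-43, which binds RNA and acts in its splicing and stability. Each of the 3 groups was measured on 3 Affymetrix Mouse Exon 1.0 ST arrays with 100 ng of RNA per array. The series' design text speaks instead of motor neurons and counts the 11 days from transfection. The labels do not say that arrays of one group came from separate cultures, so the p-values measure the spread between these arrays, which may be technical.

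A gene value is the mean log2 value of the gene's probe sets, short stretches of exon measured separately, and 814 probe sets entered the values of the 36 genes. A gene was called where the limma p-value, adjusted over all genes tested, was under 0.05. Levels were not compared between genes, because probes differ in brightness for the same amount of RNA. Fewer cells of a type and less RNA per cell cannot be told apart in these bulk samples.

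The knockdown was visible in the targeted gene. Tardbp, which encodes Tdp-43, read 9.77, 9.94 and 10.06 in shCont, 7.84, 8.23 and 8.55 in shTdp-43-1, and 8.22, 8.58 and 7.90 in shTdp-43-2. Both hairpin groups lay wholly below the controls, at 30.4% and 30.9% of the control level. Medians of the gene values ranged from 8.75 to 8.94 over the 9 arrays, and the lowest correlation between arrays across genes was 0.966. Mean log2 levels of 8 neuronal markers ranged from 11.20 to 11.45 per array, and those of 4 motor neuron markers from 6.91 to 7.09, not far above the lower limit of 6.07 for a probe set. Markers of astrocytes were also bright, with array means from 10.16 to 10.44 over 6 genes. Single genes of these lists fell with both hairpins: Neurod6, a transcription factor of excitatory cortical neurons, by 0.42 and 0.78 on the log2 scale, and Aqp4, the astrocyte water channel, by 0.43 and 0.59. No other neuronal or astrocyte marker was called. Of the 8 neuronal markers, 3 lay above 0 with shTdp-43-1 and 4 with shTdp-43-2. Of the 6 astrocyte markers, 3 lay above 0 with each hairpin. Genes of other marker lists were also called. The 6 markers of fibroblasts and pericytes had array means from 8.61 to 8.73 in shCont, 8.42 to 8.60 in shTdp-43-1 and 8.21 to 8.38 in shTdp-43-2. Of these 6, 2 were called lower with shTdp-43-1 and 3 with shTdp-43-2, beside 5.96% and 14.1% of all genes tested. The list did not fall as a whole, since 3 of the 6 lay above 0 with each hairpin. Among 5 markers of inhibitory neurons, 2 were called higher with shTdp-43-1, beside 5.16% of all genes. With shTdp-43-2, 1 was called higher and 3 lower, beside 7.76% and 14.1% of all genes. Of these 5 markers, 3 lay above 0 with shTdp-43-1 and 2 with shTdp-43-2. Whether such shifts take part in the changes of the synthetases was not tested.

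With shTdp-43-1, 4 of the 36 synthetase genes fell (Tarsl2, Kars, Hars2 and Yars2), where 5.96% of all genes tested fell. Another 2 rose (Wars2 and Sars2), where 5.16% of all genes rose. With shTdp-43-2, 7 fell (Tarsl2, Yars, Qars, Hars2, Cars2, Iars2 and Vars), where 14.1% of all genes fell. A single gene, Tars2, rose with this hairpin, where 7.76% of all genes rose. Tarsl2 and Hars2 fell with both hairpins, 2 of 36 (5.56%) where 3.49% of all genes tested did, and 24 of the 36 (66.7%) were called with neither, beside 73.6% of all genes. In limma's test 0 of the 36 were called higher with both hairpins (2.95% of all genes were), and 1, Tars2, was higher with both at an unadjusted p under 0.05. Both comparisons use the same 3 control arrays, so their calls are not independent of each other.

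On the log2 scale the 36 genes had a median change of -0.03 under shTdp-43-1 and -0.21 under shTdp-43-2, beside 0.01 and -0.01 over all genes tested. Without shTdp-43-2 replicate 1 the median with that hairpin was -0.12. That with shTdp-43-1 was 0.01 without shCont replicate 3, without shTdp-43-1 replicate 1 or after centring each array on its median, so it has no settled sign. The counts for shTdp-43-1 rested on single arrays. Genes called lower numbered 1 when shCont replicate 1, shCont replicate 3 or shTdp-43-1 replicate 3 was left out, and 2 when it was shCont replicate 2 or shTdp-43-1 replicate 2. Genes called higher numbered 1 without any single control array, or without shTdp-43-1 replicate 1 or replicate 2. With shTdp-43-2 the genes called lower numbered 7 or 8 whichever array was left out, and Tars2 was no longer called when shCont replicate 2 or shTdp-43-2 replicate 1 was dropped. A second gene, Nars2, was called higher with shTdp-43-2 when replicate 3 of that group was left out, at an adjusted p of 0.0329. Centring each array on its median turned the split for shTdp-43-1 from 2 higher and 4 lower to 3 and 3, and that for shTdp-43-2 from 1 and 7 to 2 and 7. Quantile normalization gave 3 higher and 4 lower for shTdp-43-1, and 2 and 8 for shTdp-43-2.

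**Figure D1:**
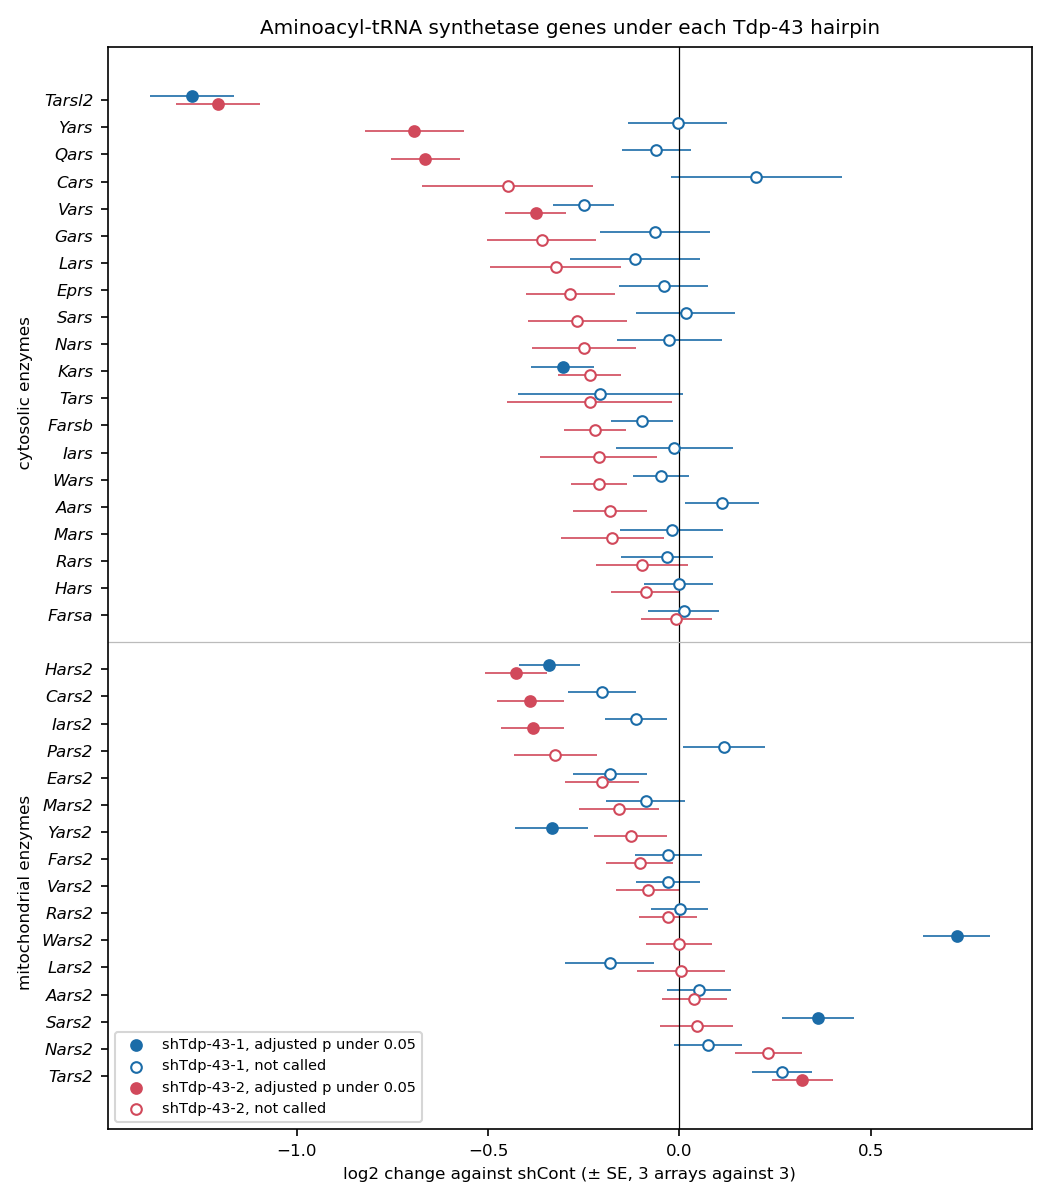
Log2 change against shCont (horizontal axis, ± SE, 3 arrays against 3) of the 36 synthetase genes, with cytosolic enzymes above the line and mitochondrial enzymes below it; filled points have an adjusted p under 0.05. Tarsl2 lies near -1.27 and -1.21 with the hairpins, Wars2 lies at 0.72 with shTdp-43-1 alone, and the red points of the 20 cytosolic enzymes lie below 0, where 19 of 20 did after centring or quantile normalization.

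Tarsl2 was the family's largest change with each hairpin. The gene encodes a second cytosolic threonyl-tRNA synthetase, a paralogue of Tars, which encodes the main one. Tarsl2 read 9.68, 9.58 and 9.62 on the control arrays, 8.15, 8.48 and 8.43 with shTdp-43-1, and 8.31, 8.62 and 8.33 with shTdp-43-2. Every array of either hairpin lay far below the lowest control array, and the 2 hairpin groups overlapped each other. The log2 change was -1.27 ± 0.110 (SE, n = 3 against 3) with shTdp-43-1 and -1.21 ± 0.110 with shTdp-43-2, with limma adjusted p of 0.000143 and 3.65e-05. This left 41.4% and 43.3% of the control level. The hairpins differed by 0.07 in Tarsl2, and the 95% interval of that difference ran from -0.17 to 0.31 (adjusted p = 0.767). The fall was called under all 18 other settings for both hairpins, with values from -1.35 to -1.17 and from -1.40 to -1.12.

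Tars did not pass the test with either hairpin. Its values were 9.52, 9.68 and 10.01 in shCont, 9.09, 9.63 and 9.88 in shTdp-43-1, and 9.08, 9.79 and 9.64 in shTdp-43-2, so the groups overlapped. The log2 change was -0.21 ± 0.216 (SE) with shTdp-43-1 and -0.23 ± 0.216 with shTdp-43-2, with 95% intervals from -0.68 to 0.27 and from -0.71 to 0.24. The upper ends of the intervals for Tarsl2, -1.03 and -0.97, lay below the lower ends of those for Tars. The difference between the paralogues was not itself tested.

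**Figure D2:**
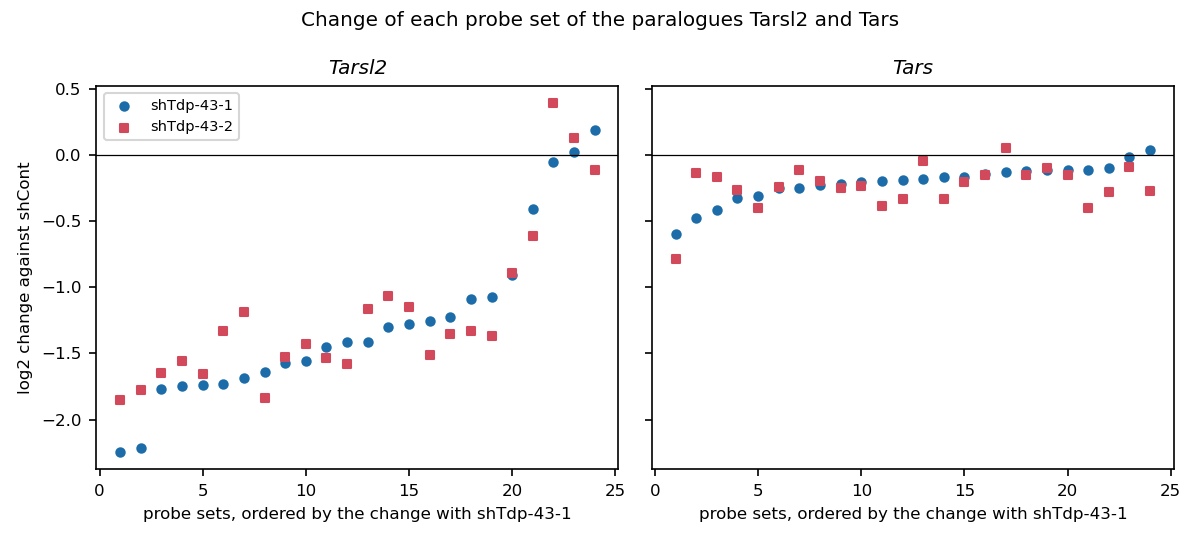
Log2 change against shCont (vertical axis) of each of the 24 probe sets of Tarsl2 (left) and the 24 of Tars (right), ordered along the horizontal axis by the change with shTdp-43-1. In Tarsl2, 21 probe sets lie between -2.24 and -0.41 with shTdp-43-1 and 3 lie near 0, while the probe sets of Tars lie between -0.60 and 0.04.

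Within Tarsl2, 21 of the 24 probe sets were below every control array on all arrays of both hairpins. Their changes ran from -2.24 to -0.41 with shTdp-43-1 and from -1.85 to -0.61 with shTdp-43-2, with medians of -1.45 and -1.43. The other 3, probe sets 4902705, 5122142 and 5539382, changed by -0.05, 0.19 and 0.02 with shTdp-43-1 and by 0.39, -0.11 and 0.13 with shTdp-43-2. Probe set 5539382 read 12.10, 12.02 and 12.11 in shCont, 11.89, 12.24 and 12.17 in shTdp-43-1, and 12.11, 11.99 and 12.51 in shTdp-43-2, so this stretch did not follow the rest of the gene. Probe set 4902705 likewise overlapped the controls with both hairpins, at 10.13, 9.83 and 10.15 in shCont, 9.92, 10.13 and 9.90 in shTdp-43-1, and 10.42, 10.12 and 10.76 in shTdp-43-2. Probe set 5122142 was dim, with control values of 7.12, 5.96 and 6.44. For this gene and those below, the share of all probe sets that lay below every control array was not computed. Probe sets of one gene are read on the same arrays and are not independent of each other.

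The change of a probe set minus that of the rest of its gene is called its usage and was tested with limma's diffSplice. Relative to the rest of Tarsl2, the 3 probe sets were higher by 1.27, 1.53 and 1.35 with shTdp-43-1 and by 1.67, 1.14 and 1.39 with shTdp-43-2. All 6 differences were called, the weakest at an adjusted p of 0.000271, and probe set 5122142 lost its call with shTdp-43-2 when shCont replicate 2 was left out (0.88, adjusted p = 0.0791). With shTdp-43-1 alone, probe sets 4659663 and 5309653 fell further than the rest of Tarsl2, by -1.01 and -0.98, and probe set 4806800 fell less, with a usage of 0.90. Leaving out 1 array ended the call of each of these. For 4659663 it was shCont replicate 3 (adjusted p = 0.0876) or shTdp-43-1 replicate 1 (0.0618). For 5309653 the call ended without shTdp-43-1 replicate 2 or 3 or without any 1 control array, at adjusted p from 0.0535 to 0.128, and for 4806800 without any 1 of the 6 arrays compared, at adjusted p from 0.0558 to 0.152. Without shTdp-43-2 replicate 2, probe sets 4659663 and 5309653 were called lower with shTdp-43-2 as well (adjusted p = 0.0382 and 0.0289). In Tars 0 probe sets were called for usage with either hairpin by diffSplice, and 0 had an unadjusted p under 0.05.

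A further probe set, 5177190, is annotated to both Tarsl2 and Tm2d3 and was left out of both gene values. It read 8.31, 8.33 and 8.55 in shCont and fell to 5.64, 6.00 and 6.74 with shTdp-43-1 and to 6.76, 7.01 and 5.46 with shTdp-43-2, so it moved as most of Tarsl2 did, by -2.26 and -1.98. Tm2d3, which encodes a membrane protein, was itself not called, at -0.16 ± 0.102 and -0.11 ± 0.102 (SE) with the hairpins.

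Yars, the cytosolic tyrosyl enzyme, fell with shTdp-43-2. Its values were 11.73, 11.76 and 11.79 in shCont, 11.64, 11.87 and 11.76 in shTdp-43-1, and 10.73, 11.20 and 11.28 in shTdp-43-2. The shTdp-43-1 arrays spread around the controls, and the shTdp-43-2 arrays lay below both other groups. The change with shTdp-43-2 was -0.69 ± 0.129 (SE, limma adjusted p = 0.00287), or 61.9% of the control level; under shTdp-43-1 it was -0.00 with a 95% interval from -0.29 to 0.28. All 18 probe sets of Yars were below every control array with shTdp-43-2, and 0 were with shTdp-43-1. Such counts also occur without a call: in Sars, 15 of 29 probe sets were below every control array with shTdp-43-2.

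Qars, the cytosolic glutaminyl enzyme and a subunit of the multi-synthetase complex, had the same form. It read 10.42, 10.35 and 10.38 in shCont, 10.39, 10.39 and 10.19 in shTdp-43-1, and 9.73, 9.84 and 9.59 in shTdp-43-2. With shTdp-43-2 no array reached the controls, and the change was -0.66 ± 0.0897 (SE, limma adjusted p = 0.000401), or 63.1% of the control level. With shTdp-43-1 it was -0.06, with a 95% interval from -0.26 to 0.14. Of the 29 probe sets of Qars, 25 were below every control array with shTdp-43-2 and 1 with shTdp-43-1.

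Vars, the cytosolic valyl enzyme, fell with shTdp-43-2 and lay lower with shTdp-43-1 without passing the test. The values were 10.10, 9.92 and 9.96 in shCont, 9.78, 9.78 and 9.67 in shTdp-43-1, and 9.66, 9.58 and 9.61 in shTdp-43-2. Neither hairpin group overlapped the controls. With shTdp-43-2 the change was -0.38 ± 0.0798 (SE), at a limma adjusted p of 0.00599, and with shTdp-43-1 it was -0.25 ± 0.0798, at 0.0669.

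Kars, the lysyl enzyme of both compartments and a subunit of the multi-synthetase complex, fell with shTdp-43-1. It read 10.84, 10.88 and 10.91 in shCont, 10.64, 10.59 and 10.49 in shTdp-43-1, and 10.69, 10.71 and 10.53 in shTdp-43-2. Both hairpin groups lay wholly below the controls, and all 20 probe sets of Kars had negative changes with each hairpin. Such counts also occur without a call: in Tars, 23 of 24 probe sets had negative changes with each hairpin. The share of all probe sets with a negative change was not computed. The change was -0.30 ± 0.0817 (SE, limma adjusted p = 0.0347) under shTdp-43-1 and -0.23 ± 0.0817 (0.0613) under shTdp-43-2. The call with shTdp-43-1 ended when any 1 control array, shTdp-43-1 replicate 2 or shTdp-43-1 replicate 3 was left out, at adjusted p from 0.0858 to 0.123.

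The other 15 cytosolic genes tested were called with neither hairpin. They include Gars, Iars and Aars, the glycyl, isoleucyl and alanyl enzymes, at -0.06, -0.01 and 0.11 with shTdp-43-1 and -0.36, -0.21 and -0.18 with shTdp-43-2. Without shTdp-43-2 replicate 1 the values of Gars, Iars and Aars with that hairpin were -0.18, -0.05 and -0.08, and without shTdp-43-1 replicate 1 Gars and Iars lay at 0.03 and 0.12 with shTdp-43-1, above 0. Cars, the cysteinyl enzyme, had the largest standard error among the 36 genes. Its values were 10.50, 10.55 and 10.79 in shCont, 10.54, 10.94 and 10.96 in shTdp-43-1, and 9.52, 10.41 and 10.56 in shTdp-43-2, so replicate 1 of shTdp-43-2 stood apart from the other two. The change of Cars with that hairpin was -0.45 ± 0.224 (SE), with a 95% interval from -0.94 to 0.04, and it was -0.13 without that array. Farsa, the catalytic subunit of the phenylalanyl enzyme, gave 0.01 and -0.01 with the hairpins, and its partner subunit Farsb gave -0.10 and -0.22. Among the 7 genes of the multi-synthetase complex with a value, 1 of 7 (14.3%) fell with each hairpin, Kars with the first and Qars with the second. Over all genes tested, 5.96% and 14.1% fell. The medians of the 7 genes were -0.04 and -0.23.

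With shTdp-43-2 the values of all 20 cytosolic genes lay below 0, with a median of -0.24. Over all genes tested, 8602 of 16770 lay below 0 with this hairpin. Of the 20 genes, 4 (20%) were called lower, beside 14.1% of all genes. The number below 0 was 19 of 20 after centring each array on its median, after quantile normalization, under a stricter filter on dim probe sets, and without shCont replicate 1 or shTdp-43-2 replicate 3, and Farsa was the gene nearest to 0, at -0.01. With shTdp-43-1, 16 of 20 lay below 0, beside 8220 of all 16770 genes. Of the 20, 9 did after centring and 12 after quantile normalization, so the direction of the group with this hairpin turned with the scaling. By limma, 0 cytosolic genes were called higher with either hairpin, beside 5.16% and 7.76% of all genes. At an unadjusted p under 0.05, 0 cytosolic genes were higher.

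Replicate 1 of shTdp-43-2 was the lowest array of its group for 15 of the 20 cytosolic genes, and for 3 of the 16 mitochondrial ones. For the mitochondrial genes the lowest array was mostly shTdp-43-2 replicate 3, in 13 of the 16. Without shTdp-43-2 replicate 1, the median over the cytosolic genes was -0.14 with all 20 still below 0. Similarly, shTdp-43-1 replicate 1 was the lowest of its group for 13 of the 20, and without it 8 of 20 lay below 0 with that hairpin; without shCont replicate 3, 9 of 20 did. No cause of this spread between arrays of one group was tested.

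Among the mitochondrial enzymes, Hars2, the histidyl enzyme, fell with both hairpins. It read 9.32, 9.15 and 9.26 in shCont, 8.92, 8.95 and 8.83 in shTdp-43-1, and 8.78, 8.89 and 8.78 in shTdp-43-2. The lowest control array lay above every hairpin array. The change was -0.34 ± 0.0800 (SE, limma adjusted p = 0.0201) with shTdp-43-1, or 79.0% of the control level, and -0.43 ± 0.0800 (0.00294) with shTdp-43-2, or 74.4%. The call with shTdp-43-1 ended without shCont replicate 1, shCont replicate 3 or shTdp-43-1 replicate 3, at adjusted p of 0.0893, 0.062 and 0.0764. Of the 16 probe sets of Hars2, 12 were below every control array with both hairpins.

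Iars2 and Cars2, the mitochondrial isoleucyl and cysteinyl enzymes, fell with shTdp-43-2. Iars2 read 9.78, 9.78 and 9.81 in shCont, 9.77, 9.61 and 9.66 in shTdp-43-1, and 9.41, 9.52 and 9.30 in shTdp-43-2. Cars2 read 9.52, 9.38 and 9.33 in shCont, 9.33, 9.16 and 9.14 in shTdp-43-1, and 8.99, 9.11 and 8.97 in shTdp-43-2. In both genes the shTdp-43-2 arrays lay below the other 2 groups. The changes with shTdp-43-2 were -0.38 ± 0.0820 for Iars2 and -0.39 ± 0.0880 for Cars2 (SE), at limma adjusted p of 0.0062 and 0.00833. Under shTdp-43-1 they were -0.11 and -0.20, and neither was called.

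Yars2, the mitochondrial tyrosyl enzyme, fell with shTdp-43-1, from 9.31, 9.35 and 9.36 in shCont to 8.95, 8.996 and 9.08. Its shTdp-43-2 arrays, at 9.17, 9.42 and 9.06, overlapped the controls. The change with shTdp-43-1 was -0.33 ± 0.0951 (SE, limma adjusted p = 0.0444), the weakest call of the family. It ended when any 1 of the 6 arrays compared, or shTdp-43-2 replicate 1, was left out, at adjusted p from 0.055 to 0.125.

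Wars2, the mitochondrial tryptophanyl enzyme, rose with shTdp-43-1. It read 8.14, 8.14 and 8.26 in shCont, 8.998, 8.86 and 8.86 in shTdp-43-1, and 8.09, 8.31 and 8.13 in shTdp-43-2. The shTdp-43-1 arrays lay far above the controls, and the shTdp-43-2 arrays lay among them. The change with shTdp-43-1 was 0.72 ± 0.0870 (SE, limma adjusted p = 0.000587), or 1.65-fold, and held under all 18 other settings at values from 0.52 to 0.78. With shTdp-43-2 the change was -0.00, with a 95% interval from -0.19 to 0.19.

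Sars2, the mitochondrial seryl enzyme, also rose with shTdp-43-1, from 8.59, 8.45 and 8.49 in shCont to 9.05, 8.87 and 8.69, while it read 8.58, 8.56 and 8.52 with shTdp-43-2. The change with shTdp-43-1 was 0.36 ± 0.0949 (SE, limma adjusted p = 0.0318). The call ended without any 1 control array and without shTdp-43-1 replicate 1 or 2, at adjusted p from 0.0633 to 0.114.

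Tars2, the mitochondrial threonyl enzyme, rose with shTdp-43-2. It read 8.84, 8.71 and 8.86 in shCont, 9.16, 9.04 and 9.02 in shTdp-43-1, and 9.17, 9.12 and 9.09 in shTdp-43-2. All 6 hairpin arrays lay above the highest control. The change was 0.32 ± 0.0790 (SE, limma adjusted p = 0.0129) with shTdp-43-2 and 0.27 ± 0.0790 (0.0502) with shTdp-43-1, the latter just short of a call. The call with shTdp-43-2 ended without shCont replicate 2 (0.28, adjusted p = 0.0617) or shTdp-43-2 replicate 1 (0.30, adjusted p = 0.0522). With shTdp-43-1, Tars2 was called without shTdp-43-2 replicate 3 (adjusted p = 0.0485).

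The other 9 mitochondrial genes tested were called with neither hairpin. Among them, Rars2, Vars2 and Fars2, the arginyl, valyl and phenylalanyl enzymes, gave 0.00, -0.03 and -0.03 with shTdp-43-1 and -0.03, -0.08 and -0.10 with shTdp-43-2. Nars2, the asparaginyl enzyme, gave 0.07 and 0.23, and Pars2, the prolyl enzyme, gave 0.12 and -0.32. Pars2 was called lower with shTdp-43-2 when shTdp-43-1 replicate 1 or 3 was left out of the fit (adjusted p = 0.0209 and 0.0331). Over the 16 mitochondrial genes the median came to -0.03 under shTdp-43-1 and -0.09 under shTdp-43-2. That with shTdp-43-1 has no settled sign, at 0.01 without shCont replicate 1 and 0.02 after centring each array on its median. That with shTdp-43-2 was -0.04 without shCont replicate 1, -0.05 without shTdp-43-2 replicate 3 and -0.01 after centring.

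**Figure D3:**
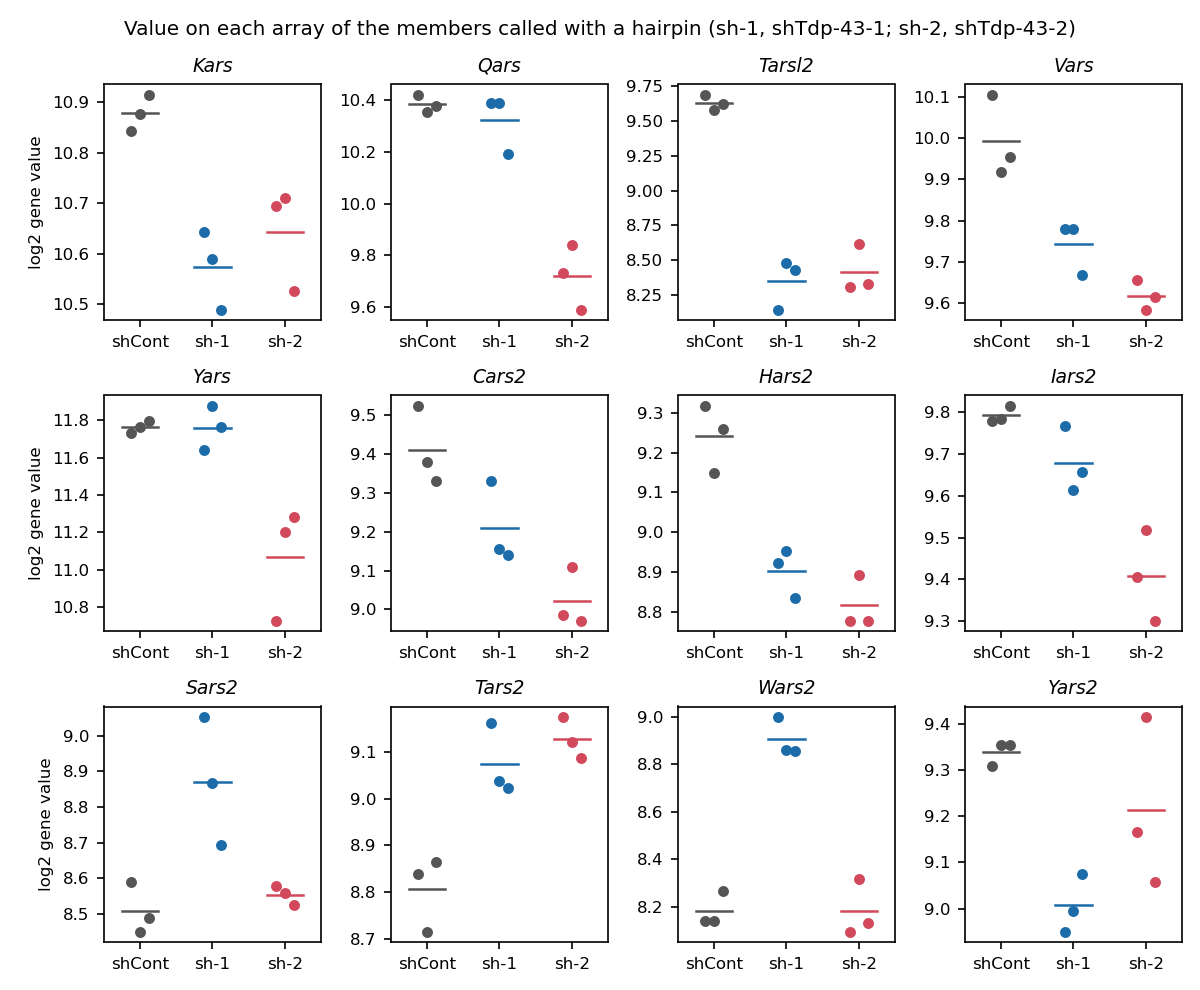
Log2 gene value (vertical axis, a separate range for each gene) on each of the 9 arrays for the 12 synthetase genes called with at least 1 hairpin; points are arrays and lines are group means. Tarsl2 and Hars2 are lower in both hairpin groups, Yars, Qars and Iars2 are lower in the shTdp-43-2 arrays, and Wars2 is higher in the shTdp-43-1 arrays.

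Because the hairpins target the same gene, they were also compared with each other. Of the 36 genes, 4 differed between shTdp-43-2 and shTdp-43-1, where 11.5% of all genes tested did. Wars2 was lower with shTdp-43-2 by -0.73 ± 0.0870, Yars by -0.69 ± 0.129, Qars by -0.60 ± 0.0897 and Pars2 by -0.44 ± 0.108 (SE). The limma adjusted p-values were 0.000494, 0.00603, 0.00163 and 0.0223. Pars2 read 8.18, 8.07 and 8.19 in shCont, 8.49, 8.24 and 8.05 in shTdp-43-1, and 7.78, 7.92 and 7.76 in shTdp-43-2, so its shTdp-43-2 arrays lay below both other groups. The difference in Pars2 lost its call without shTdp-43-1 replicate 1 or 2 or shTdp-43-2 replicate 1 or 3, at adjusted p from 0.0537 to 0.0811. Leaving out an array also added calls between the hairpins: Cars without shTdp-43-2 replicate 3 (adjusted p = 0.0327), Iars2 without shTdp-43-2 replicate 2 (0.0401) and Sars2 without shTdp-43-1 replicate 3 (0.0269).

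Along these genes the differences were spread over the probe sets. With shTdp-43-1, 11 of the 12 probe sets of Wars2 had a change above 0, with a median of 0.79, and with shTdp-43-2 the median was -0.02. The probe sets of Qars had a median change of -0.03 under shTdp-43-1 and -0.68 under shTdp-43-2, and those of Yars -0.04 and -0.72.

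**Figure D4:**
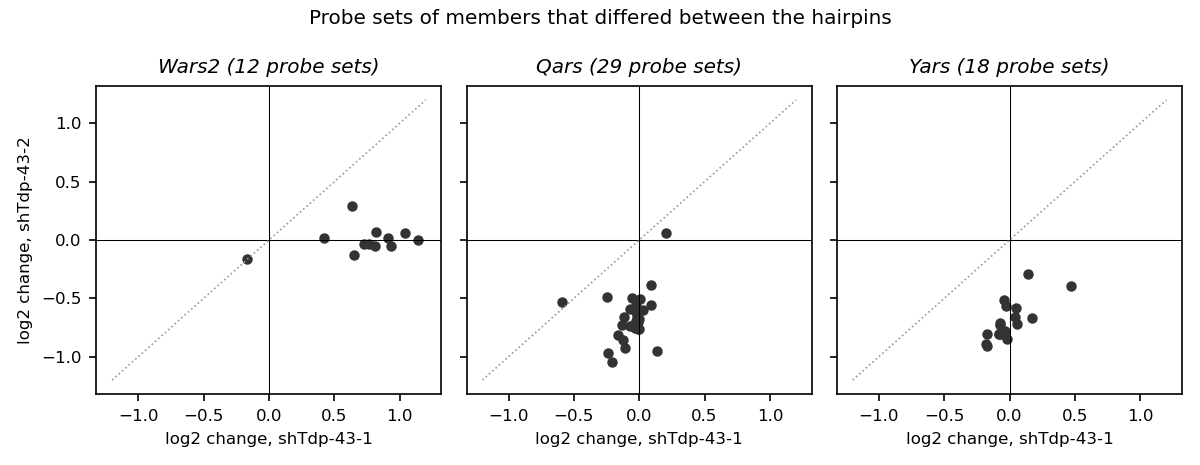
Log2 change against shCont of each probe set of Wars2, Qars and Yars with shTdp-43-1 (horizontal axis) and shTdp-43-2 (vertical axis); the dotted line marks equal changes. The probe sets of Wars2 lie mostly to the right, with a median of 0.79 on the horizontal axis, and those of Yars and 28 of the 29 of Qars lie below 0 on the vertical axis, with medians for Qars and Yars of -0.68 and -0.72.

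Cytosolic and mitochondrial enzymes for the same amino acid had different values in some cases and similar values in others. Rars and Rars2, for arginine, gave -0.03 and 0.00 with shTdp-43-1 and -0.10 and -0.03 with shTdp-43-2. Mars and Mars2, for methionine, gave -0.02 and -0.09 with shTdp-43-1 and -0.18 and -0.16 with shTdp-43-2. For histidine, Hars gave -0.00 and -0.09 with the hairpins while Hars2 fell by 0.34 and 0.43 on the log2 scale. For tryptophan, Wars gave -0.05 and -0.21 while Wars2 gave 0.72 and -0.00. For tyrosine, Yars gave -0.00 and -0.69 while Yars2 gave -0.33 and -0.13. For threonine, Tarsl2 fell with both hairpins, Tars was called with neither and Tars2 lay above 0, at 0.27 and 0.32. These differences between genes were not tested.

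Over the whole family, usage was called in 10 of the 814 probe sets with shTdp-43-1, where 0.494% of all probe sets tested were called, and in 5 with shTdp-43-2, where 1.24% were. The 10 lay in 5 genes, with 6 higher and 4 lower, and the 5 lay in 3 genes, all higher. Among these, 3 of the 814 probe sets, all of Tarsl2, had higher usage with both hairpins, where both hairpins gave calls of one direction in 0.189% of all probe sets. Apart from Tarsl2, the largest usage differences were those of probe set 5412363 of Iars2, at -0.99 with shTdp-43-1, and probe set 4683619 of Wars2, at -0.97. The Iars2 probe set was dim, at 6.47, 6.97 and 6.83 in shCont and 5.60, 5.43 and 6.01 in shTdp-43-1, and it was also called with shTdp-43-2 once replicate 1 of that group was left out (-0.95, adjusted p = 0.00102). The Wars2 probe set read 8.29, 8.37 and 8.10 in shCont and 8.24, 7.78 and 8.24 in shTdp-43-1, so it did not share the rise of the rest of Wars2, and it lost its call without shTdp-43-1 replicate 2 (adjusted p = 0.0527). The count with shTdp-43-1 was 6 when replicate 1 or 3 of shCont, or replicate 2 or 3 of shTdp-43-1, was dropped. That with shTdp-43-2 was 3 after leaving out shCont replicate 2, 8 after leaving out its own replicate 1 and 17 after leaving out its own replicate 2.

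The promoters of the family were read for the binding core of ATF4, the amino acid response element, because several cytosolic synthetases are known ATF4 targets. RefSeq windows of 300 bases (build GRCm38.p6, 250 before and 50 after the gene start) were matched for 28 of the 37 genes, which gave 29 windows. The core, written TGATGNAA and searched on both strands, was present in 5 of these 29 windows (17.2%) and in 3.97% of 32851 promoter windows of that length. The matches of Gars, Iars, Tars and Yars are shown in capitals within 30 bases, read along the gene's strand, since they let the sites be compared; on the opposite strand the core reads TTNCATCA.
Gars (chr6:55037960-55037989, + strand): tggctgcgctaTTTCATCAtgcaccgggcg
Iars (chr13:49682126-49682155, + strand): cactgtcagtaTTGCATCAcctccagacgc
Tars (chr15:11399655-11399684, - strand): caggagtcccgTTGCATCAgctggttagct
Yars (chr4:129189895-129189924, + strand): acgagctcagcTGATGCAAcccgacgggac
Tarsl2 was called with both hairpins and Tars with neither, and the difference between them was not tested. The 100 bases before the start of these threonyl paralogues are given, with the same core in capitals.
Tars (chr15:11399659-11399758, - strand): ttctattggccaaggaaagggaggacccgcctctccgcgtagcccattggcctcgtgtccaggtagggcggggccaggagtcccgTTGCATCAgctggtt
Tarsl2 (chr7:65644798-65644897, + strand): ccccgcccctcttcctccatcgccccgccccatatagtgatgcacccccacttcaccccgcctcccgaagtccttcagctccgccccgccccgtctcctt
The window of Tarsl2 held no match to these letters. Of the 4 genes whose matches are shown, Yars fell with shTdp-43-2, and the other 3 were called with neither hairpin, at -0.21 to -0.01 under shTdp-43-1 and -0.36 to -0.21 under shTdp-43-2. Other short motifs were searched in the same windows on both strands: the Myc E-box CACGTG was present in 5 of 29 (17.2%, beside 7.15% of all windows), CCAAT in 13 (44.8%, beside 37.4%) and TATAAA in 4 (13.8%, beside 13.6%). A match in a promoter is a description of sequence and not evidence of binding.

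Other genes of the pathway were read from 4 lists. Over all genes tested, 5.96% fell and 5.16% rose with shTdp-43-1, and 14.1% fell and 7.76% rose with shTdp-43-2. Of 12 tested partners of the synthetases and other enzymes that charge or edit transfer RNA, by limma 0 were called with shTdp-43-1 (4 had an unadjusted p under 0.05), and 3 fell with shTdp-43-2. Pstk, which phosphorylates seryl-tRNA on the way to selenocysteine, changed by -0.64 ± 0.115 (SE). Gatc, a subunit of the mitochondrial amidotransferase that makes glutaminyl-tRNA, read 10.66, 10.65 and 10.55 in shCont and 10.07, 10.09 and 10.07 in shTdp-43-2, a change of -0.54 ± 0.0775. Mtfmt, which formylates the mitochondrial initiator methionyl-tRNA, changed by -0.49 ± 0.113.

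Elongation factors bring charged transfer RNA to the ribosome and move it through. Of 11 genes listed for these factors and their helpers, Eef2k and Gfm2 among them, 2 (18.2%) fell with each hairpin. Over all genes tested, 5.96% and 14.1% fell. Eef1g, a subunit of the exchange factor of elongation factor 1, fell with both. It read 11.66, 11.65 and 11.67 in shCont, 11.16, 11.16 and 11.12 in shTdp-43-1, and 11.32, 11.30 and 11.23 in shTdp-43-2, changes of -0.51 and -0.38 ± 0.0706 (SE) with no overlap between hairpin and control arrays. Eef1b2, another exchange subunit, changed by -0.32 with shTdp-43-1, and Tufm, the mitochondrial elongation factor Tu, by -0.29 with shTdp-43-2. Among 16 genes of transfer RNA processing, 2 (12.5%) fell with shTdp-43-1: Prorp, the nuclease that cuts mitochondrial transfer RNA at its 5′ end, by -0.34, and Elac2, which cuts at the 3′ end, by -0.29. With shTdp-43-2, 1 of the 16 (6.25%) rose and 2 (12.5%) fell, beside 7.76% and 14.1% of all genes. Trnt1, which adds the CCA end, rose by 0.29, and the splicing endonuclease subunits Tsen54 and Tsen15 changed by -0.29 and -0.28.

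Of 25 genes of the amino acid and ATF4 response, 2 (8%) fell with shTdp-43-1, beside 5.96% of all genes tested. With shTdp-43-2, 3 (12%) fell and 1 (4%) rose, beside 14.1% and 7.76% of all genes. Pycr1, an enzyme of proline synthesis, fell with both, by -0.85 and -1.02 ± 0.183 (SE), and Ddit4, an inhibitor of mTORC1 signalling, by -0.34 and -0.56 ± 0.0933. With shTdp-43-2, Cth, which makes cysteine from cystathionine, fell to 6.79, 7.08 and 6.997 from 8.20, 8.04 and 8.62 in shCont, a change of -1.33 ± 0.136. Slc7a11, the cystine importer, rose by 1.23 ± 0.307, with 9.59, 10.24 and 10.10 against 8.29, 8.43 and 9.53. The list had a median change of 0.13 under shTdp-43-1 and -0.25 under shTdp-43-2, beside 0.01 and -0.01 over all genes. Its array means overlapped between the groups, at 9.86 to 10.27 in shCont, 9.70 to 10.23 in shTdp-43-1 and 9.43 to 10.05 in shTdp-43-2. Replicate 1 of shTdp-43-2 stood low in genes such as Chac1 (9.85, 11.33 and 11.70) and Mthfd2 (9.44, 10.31 and 10.46). Replicate 1 of shTdp-43-1 was also the lowest of its group in Chac1 (10.96, 11.94 and 11.87) and Mthfd2 (10.03, 10.39 and 10.55). The list medians without either array were not computed. Over the 4 lists, of 12, 11, 16 and 25 genes, 6 genes were called with shTdp-43-1 and 12 with shTdp-43-2. Over all genes tested, 11.1% and 21.9% were called. The count with shTdp-43-1 was 2 without shCont replicate 1 or shCont replicate 3 and 3 without shTdp-43-1 replicate 3, and that with shTdp-43-2 was 7 without shCont replicate 1.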

How the data were processed

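The deposited file gives, per the labels, RMA values on the log2 scale for every probe set. The submitters' processing notes name Affymetrix Expression Console and the build mm9, with no version used here. RMA removes background and equalises the arrays, so a shift common to most probes is mostly lost and dim values are compressed. No depth applies to arrays, and 3 arrays per group limit the precision. The table holds 1256831 probe sets, of which 318760 have 1 gene symbol, 6684 several and 931387 none in the platform annotation. Symbols were updated through RefSeq (GRCm38.p6). Exon coordinates were not used, so probe sets are given by ID.

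Probe sets entered if their mean over the 9 arrays reached the table's median, 6.07. A gene value is the mean of at least 3 kept probe sets naming that gene alone, which gave 16770 genes from 248701 probe sets. All 3 groups were fitted together with limma 3.58.1 (lmFit, eBayes; R 4.3.3; 6 residual degrees of freedom). Usage was tested with diffSplice. P-values are two-sided with Benjamini-Hochberg adjustment over all genes or all probe sets, called under 0.05, and the code was tested on simulated data. Replicate numbers were not treated as pairs. Members called with a hairpin are given in full and the others by range. Of each pathway list at most 3 called genes per hairpin are named, by size of change. Of probe sets, those called with both hairpins and up to 5 called with one are named. Probe set 5177190, Tm2d3, Cars, Pars2 and Nars2 were singled out after their values were seen. The members and the 12 gene lists were chosen with earlier results of these data known. Alternatives changed the dim filter, scaling, summary, probe set minimum, arrays fitted, block and prior trend, or left out each array in turn. The promoter stretch of 1 member is not reported here.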

Additional observations from a re-analysis of the deposited data

Results flagged for a closer look

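The hairpins target the same gene, and 4 synthetase genes differed between them by limma's test of the difference itself. On the log2 scale, shTdp-43-2 minus shTdp-43-1, the difference was -0.73 in Wars2, -0.69 in Yars, -0.60 in Qars and -0.44 in Pars2, with adjusted p of 0.000494, 0.00603, 0.00163 and 0.0223. The first 3 were called under all 18 other settings. The adjusted p of Pars2 ranged from 0.0127 to 0.0811 over those settings, and 12 of the 18 called it.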

How the results depend on the processing

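No called change of a synthetase gene reversed its direction under any setting tried. Tarsl2 (both hairpins), Wars2 (shTdp-43-1) and Yars, Qars, Hars2 and Iars2 (shTdp-43-2) were called under all 18 other settings. Vars and Cars2 lost their calls with shTdp-43-2 under the median of probe sets (adjusted p = 0.146 and 0.101). Kars and Sars2 were called under 10 of the 18 and Yars2 under 6. For shTdp-43-1, the count of genes called lower was 2 with no dim filter, with the median of probe sets or with at least 1 probe set, and ranged from 1 to 4 when an array was left out. The count called higher was 1 under the same 3 settings and ranged from 1 to 3. For shTdp-43-2, the count called lower was 11 under a dim filter set to the 75th percentile and ranged from 7 to 8. The count called higher was 2 under that filter, under centring and under quantile normalization, 0 with the median of probe sets, and ranged from 0 to 2. Between the hairpins it was 7 with a prior trend and 3 to 5 when an array was left out. Usage calls with shTdp-43-1 were 4 under the stricter filter and ranged from 6 to 11; with shTdp-43-2 they were 8 under that filter and under quantile normalization and ranged from 3 to 17. Pathway genes called with shTdp-43-1 were 10 under the stricter filter and 3 with no filter and ranged from 2 to 6; with shTdp-43-2 they ranged from 7 to 12. These pathway counts under other settings, and the counts of members below 0, were added after the data were seen. Over all 16770 genes tested, 8220 lay below 0 with shTdp-43-1 and 8602 with shTdp-43-2 in the main fit. Members below 0 numbered 25 with shTdp-43-1 (16 after centring, 20 after quantile normalization, 17 without shCont replicate 3 or without shTdp-43-1 replicate 1) and 31 with shTdp-43-2 (27 after either scaling). The cause of these shifts was not tested.

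Arrays of different groups share only a replicate number. The correlation of the deviations of same-numbered arrays ranged from -0.38 to 0.59 over 9 pairs, and shTdp-43-1 replicate 2 correlated best, at 0.68, with shTdp-43-2 replicate 3. With a replicate block, 4 genes were lower and 3 higher with shTdp-43-1, 11 lower and 1 higher with shTdp-43-2, and 7 differed between the hairpins. Usage calls became 15 and 14, and pathway calls 9 and 16.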
